A study of Papio papio with 23 samples.

Results

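The interferon-stimulated antiviral genes are genes that cells switch on when type I interferon binds its receptor. The 41 described here were taken by gene name from the array's own annotation, and all 41 had a probe. For each gene the brightest probe was read. Of the 41, 38 were well above background on at least 4 of 23 arrays and were tested among 21130 genes in all. The other 3, IFI27, MX1 and SAMD9, were each well above background on 1 array.

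The arrays measured RNA of peripheral whole blood from adult male baboons (Papio papio, mean age 8.1 ± 3.3 years, SD) exposed to gamma rays from a cobalt source over the whole body or part of it. The groups are the category of haematologic acute radiation syndrome (HARS) that each animal went on to develop. H2-3, medium to severe, had 5 baboons with blood from day 2 and day 1 after exposure. H1-2, low to medium, had 4 baboons with blood from day 2 and day 1. H0 was 5 samples labelled healthy and unexposed, drawn before irradiation. The equivalent whole-body dose in the study was 2.5 or 5 Gy; the labels used here do not give it per animal, so category and dose cannot be told apart. They also do not say whether an H0 baboon is one of the irradiated animals.

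When a virus or a damaged cell triggers interferon release, receptor signalling assembles a complex that holds STAT2 and IRF9 and drives these genes. Their products sense foreign RNA, block translation, tag proteins with the ubiquitin-like protein ISG15 and feed back on the pathway through USP18. In blood, lymphocytes, monocytes, neutrophils and plasmacytoid dendritic cells all carry parts of this programme.

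The arrays carry human probes of 60 bases, hybridised here with baboon RNA, so a level reflects both the amount of RNA and how well the baboon sequence matches. The probes below belong to some of the members on which the results turn, and the last 2 are of members that the test did not call. Positions are on the human build hg19 as the array's annotation gives them, and the sequences run 5′ to 3′.
HERC5: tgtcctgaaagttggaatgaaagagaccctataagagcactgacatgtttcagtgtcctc
HERC6: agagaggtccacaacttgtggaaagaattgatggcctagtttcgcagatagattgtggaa
EPSTI1: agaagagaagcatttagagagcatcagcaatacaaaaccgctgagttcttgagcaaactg
EIF2AK2: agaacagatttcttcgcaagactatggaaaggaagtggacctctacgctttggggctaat
IFIT3: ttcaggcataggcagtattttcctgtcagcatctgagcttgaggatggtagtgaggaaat
IFIH1: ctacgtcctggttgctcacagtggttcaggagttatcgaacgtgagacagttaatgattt
The IFIT3 probe lies at chr10:91099762-91099821 on the plus strand. HERC5 and HERC6 are neighbours on chromosome 4, with probes at chr4:89426889-89426948 and chr4:89317234-89317293, both on the plus strand. The IFIH1 probe lies at chr2:163128806-163128865 on the minus strand. The EPSTI1 and EIF2AK2 probes, at chr13:43500538-43528115 and chr2:37336386-37341880 on the minus strand, span 27578 and 5495 bases of the genome, so each crosses at least 1 exon junction. The longest run of bases that probes of 2 members of the same family shared was 9, between IFIT1 and IFIT2.

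Each level is a log2 signal minus the 75th percentile of its array. A level of 0 is thus the signal of the probe at that percentile, and a level is compared only with levels of the same probe. Between 41.4% and 51.3% of probes were well above background per array. The 75th percentile of signal was 81.0 to 156. The arrays came from 7 slides scanned on 3 days. All day 2 arrays shared slides 6 and 7 and scan day 3, which held no other group, so day 2 cannot be told apart from scan day when it is set against day 1 or H0. H0 baboons 1 and 2 were on scan day 1, and the other H0 arrays and the arrays from day 1 after exposure on scan day 2. Marker genes of blood cells moved between the groups as well. On day 1, 5 of 6 T cell markers and 5 of 6 natural killer cell markers were lower in H2-3 than in H0, while 6 of 6 monocyte markers and 5 of 5 tested neutrophil markers were higher. In whole blood, fewer cells of a type and less RNA per cell cannot be told apart. The leukocyte genes used to check the tissue, PTPRC, ITGB2 and S100A9, were all among the genes tested.

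On day 1, 12 of the 38 tested members were lower in H2-3 blood than in H0 blood and 0 were higher. Across all genes tested, 13.5% were lower and 15% higher, and the median gene was 0.14 higher on the log2 scale. Scaled to the probes detected on all arrays, 3836 genes were lower and 2051 higher, in place of 2846 and 3161, and 13 members were lower. The members' median log2 change was -0.31, with 26 members below 0, as were 8578 of all 21130 genes. That median was -0.16 without H0 baboon 5, -0.47 with quantile normalisation and -0.59 with scan day in the model. The last of these fits uses H0 baboons 3 to 5 alone as the reference. In 8 members every H2-3 array was below every H0 array, a pattern that 9.27% of all genes showed. The 12 were HERC6, ISG15, USP18, LY6E, EPSTI1, DHX58, EIF2AK2, IFI44L, HERC5, STAT2, IFIT1 and IFIT5. Tests are limma's moderated tests with Benjamini-Hochberg adjustment over all genes, two-sided, called at an adjusted p under 0.05.

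**Figure D1:**
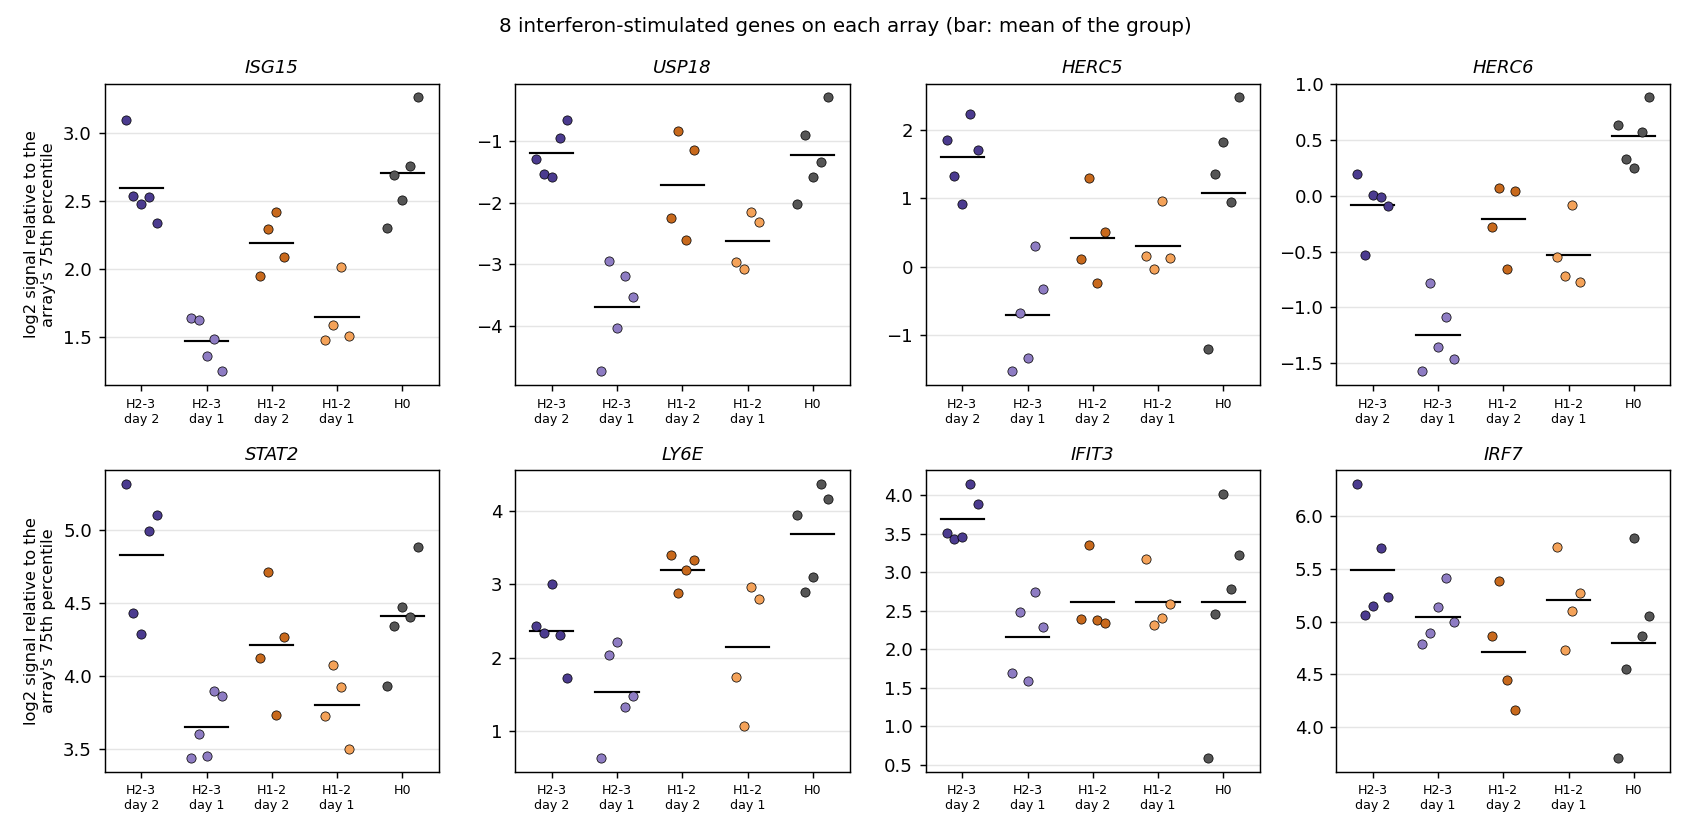
Level of ISG15, USP18, HERC5, HERC6, STAT2, LY6E, IFIT3 and IRF7 on each array (log2 signal minus the 75th percentile of the array, vertical axis), by group. Each point is 1 baboon and each line a group mean; ISG15 averaged 1.47 on H2-3 day 1 arrays against 2.70 on H0 arrays, while IRF7 overlapped between those groups.

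All 4 members of the ISG15 tagging system fell. ISG15 itself, the ubiquitin-like tag, measured 1.64, 1.62, 1.36, 1.48 and 1.25 on the H2-3 day 1 arrays, against 2.30, 2.69, 2.51, 2.76 and 3.26 on the H0 arrays. Every H2-3 array lay below the lowest H0 array, a 2.35-fold lower mean (log2 change -1.23, SE 0.19, adjusted p = 0.00014). HERC5, the ligase that attaches the tag in human cells, measured -1.54, -0.69, -1.34, 0.31 and -0.33 in H2-3 and -1.22, 1.36, 1.82, 0.95 and 2.49 in H0. The groups overlapped through H0 baboon 1, which stood well below the rest of its group (log2 change -1.80, SE 0.50, adjusted p = 0.0102). HERC6, a close relative that is the main ISG15 ligase in mouse, gave -1.57, -0.78, -1.36, -1.09 and -1.46 in H2-3 and 0.64, 0.33, 0.25, 0.57 and 0.88 in H0. It had the smallest adjusted p of the members in this comparison (log2 change -1.79, SE 0.20, adjusted p = 6.99e-05). A second HERC6 probe gave -0.97, and with another background correction, normexp, the change was -0.90 and still passed the test.

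USP18, the protease that removes ISG15 and also damps receptor signalling, measured -4.73, -2.94, -4.02, -3.19 and -3.52 on H2-3 day 1 arrays and -2.02, -0.90, -1.59, -1.34 and -0.29 on H0 arrays. The groups did not overlap (log2 change -2.45, SE 0.38, adjusted p = 0.000159). On 1 of 5 H2-3 arrays it exceeded background well. Where it did not, its level was raised to at least that of the dimmest probe well above background on the array. With this floor the fold was 3.23. With the normexp background the log2 change was -0.74 and still passed the test.

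Among the RNA-binding effectors, IFIT1 and IFIT5 fell and IFIT2 and IFIT3 did not pass the test. IFIT1, which binds viral RNA caps, gave 1.28, 2.50, 2.53, 3.48 and 2.57 in H2-3 and 3.67, 3.60, 4.03, 3.26 and 3.70 in H0. H2-3 baboon 1 was lowest, and only H2-3 baboon 4 reached the H0 range (log2 change -1.18, SE 0.36, adjusted p = 0.0163). Without H2-3 baboon 1 the change was -0.88 and was not called. IFIT5 changed by -1.05 (adjusted p = 0.02) but exceeded background well on 1 of 5 H2-3 arrays, and it was not called with the normexp background or without H0 baboon 5. IFIT3 spread from 0.59 to 4.02 in H0 and from 1.59 to 2.74 in H2-3, so the H0 range held the whole H2-3 group. Its log2 change was -0.45 (adjusted p = 0.46) and that of IFIT2 was 0.05.

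EIF2AK2, the kinase PKR that stops translation when it meets double-stranded RNA, fell by 1.07 (adjusted p = 0.00699). Its levels were 0.40, 0.28, 0.03, 0.80 and 0.85 in H2-3 and 0.74, 1.02, 1.94, 1.70 and 2.32 in H0. H2-3 baboons 4 and 5 exceeded the lowest H0 array. None of the 4 genes of the oligoadenylate synthetase family passed the test: OAS1 changed by -0.88, OAS2 by -0.82 (adjusted p = 0.0603), OAS3 by -0.44 and OASL by 0.58. RSAD2, which encodes viperin, changed by -0.31 and MX2, a dynamin-like restriction factor, by -0.02.

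Of the 3 cytosolic RNA sensors, DHX58 (LGP2) fell. It measured 3.51, 3.66, 3.40, 3.97 and 3.88 in H2-3 and 4.16, 4.43, 4.77, 4.74 and 4.83 in H0, without overlap (log2 change -0.90, SE 0.21, adjusted p = 0.0026). DDX58 (RIG-I) changed by -0.21 and IFIH1 (MDA5) by 0.01, and both overlapped between the groups. Of the 3 transcription factors, STAT2 fell, with 3.44, 3.60, 3.45, 3.90 and 3.86 in H2-3 and 3.94, 4.34, 4.48, 4.41 and 4.89 in H0. Those ranges lay close but did not overlap (log2 change -0.76, SE 0.22, adjusted p = 0.0147). IRF9, its partner in the complex, changed by -0.14, and IRF7, the factor that amplifies interferon production, by 0.25, neither called.

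The remaining calls were LY6E, IFI44L and EPSTI1. LY6E, a membrane-anchored protein that restricts coronavirus entry, measured 0.63, 2.04, 2.21, 1.33 and 1.47 in H2-3 and 3.94, 2.89, 3.1, 4.36 and 4.15 in H0. No H2-3 array reached an H0 array (log2 change -2.15, SE 0.37, adjusted p = 0.000304). EPSTI1 gave -3.28, -3.08, -2.96, -1.75 and -2.70 in H2-3 and -1.57, -1.56, -0.57, -0.17 and -0.02 in H0, with 2 of 5 H2-3 arrays well above background. Its groups were separate too (log2 change -1.98, SE 0.40, adjusted p = 0.00115), though the change was -0.69 with the normexp background. IFI44L gave -1.25, -1.61, -1.33, -0.33 and -1.31 in H2-3 and 0.02, -0.81, 0.52, 0.35 and 0.03 in H0, where H2-3 baboon 4 alone entered the H0 range (log2 change -1.19, SE 0.32, adjusted p = 0.00741). With the normexp background its change was -0.64 and still passed the test.

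The 26 members not called on day 1 lay between -0.91 (IFI44) and 0.89 (PLSCR1) on the log2 scale. Closest to a call in the other direction were IFI35, at 0.55 (adjusted p = 0.0527), and SAMD9L, at 0.86 (adjusted p = 0.0659). PARP9, PARP14, PARP12 and DTX3L, genes of ADP-ribosylation and ubiquitin marking, changed by 0.16, -0.31, -0.37 and 0.36, none called. The antiviral membrane tether BST2 changed by 0.17 and the nuclear body protein SP100 by -0.00. For 3 of these, a second probe differed: PARP9 gave -0.98 on its other kept probe, XAF1 0.82 against 0.13 on the probe used, and MX2 0.57.

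**Figure D2:**
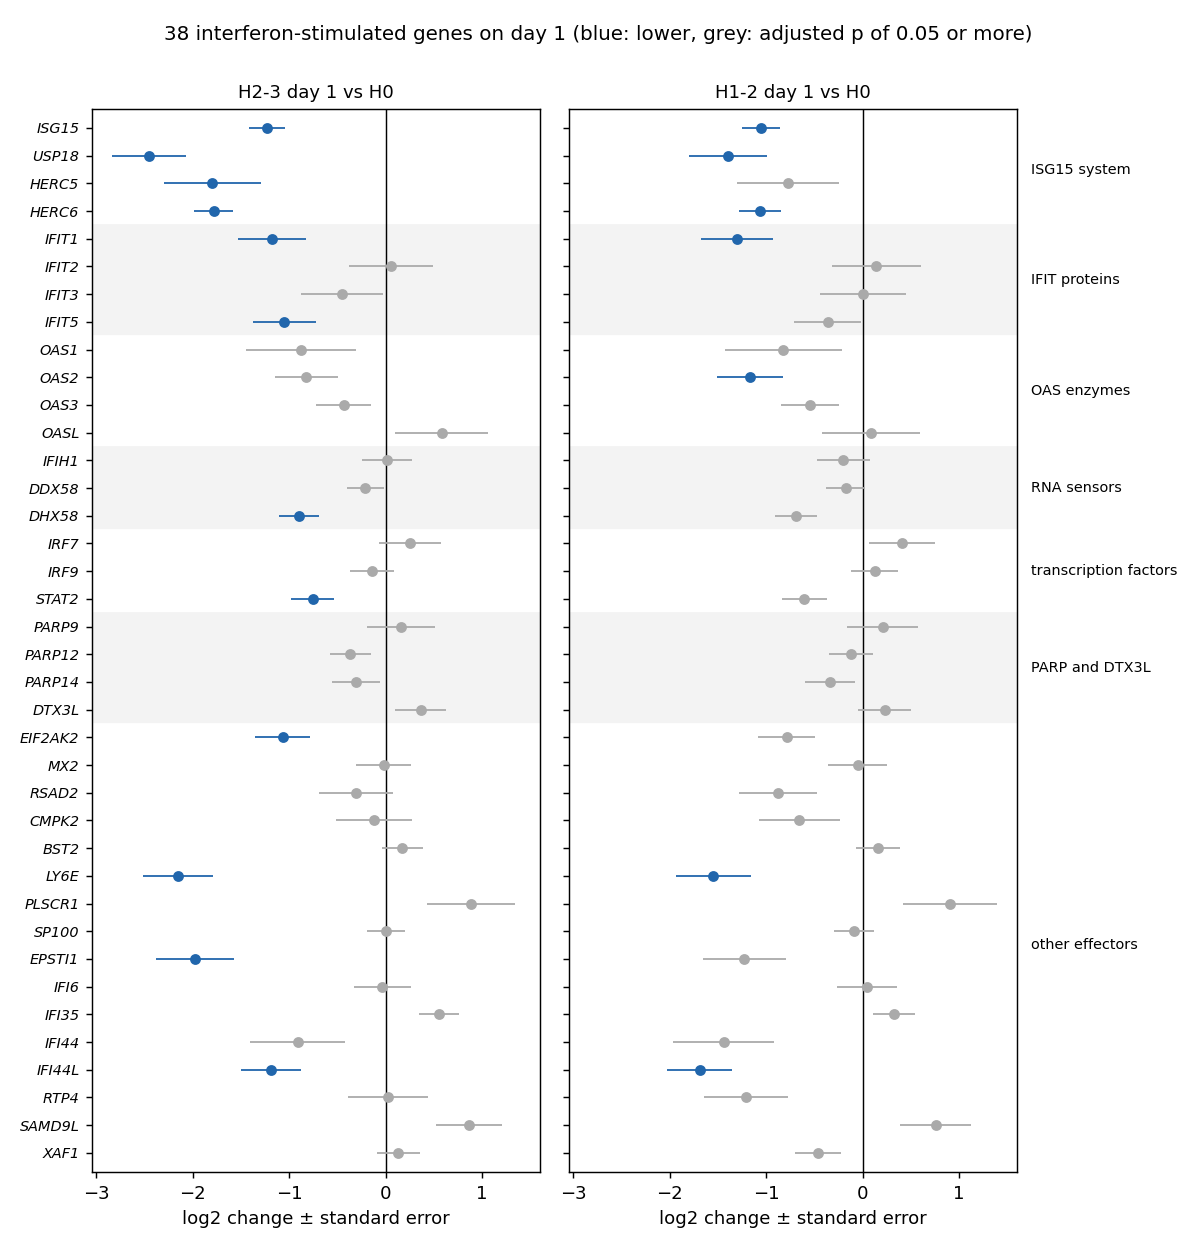
Log2 change (points) with its standard error (bars) of the 38 tested members on day 1, for H2-3 against H0 in the left panel and H1-2 against H0 in the right panel. Blue points are members called lower, 12 on the left and 7 on the right; grey points did not pass the test, and both panels use the same 5 H0 arrays.

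With scan day in the model, 15 members were lower in H2-3 on day 1, beside 2377 lower and 1989 higher among all genes. This fit sets day 1 against H0 baboons 3 to 5 only, the H0 arrays of scan day 2. It thus leaves out H0 baboon 1, which had the lowest H0 level in 29 of 38 members, and gives no separate check of the calls. Slide gives no separate check of the H2-3 day 1 calls either. H2-3 day 1 and H0 shared slide 3 alone, with 1 array each, so a fit with slide in the model compares H2-3 baboon 1 with H0 baboon 5. Of their groups, H2-3 baboon 1 had the lowest member median on day 1 and H0 baboon 5 the highest. The median of that fit was -1.24, the difference between these 2 arrays, and its calls rest on 1 array of each group. Leaving out any single array left 11 to 13 members lower and 0 to 2 higher.

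In H1-2 on day 1, 7 of 38 members were lower than in H0 and 0 were higher, against 4.42% and 4.18% of all genes. Scaled to the probes detected on all arrays, 1569 genes were lower and 751 higher, in place of 933 and 883, and 10 members were lower. The H0 arrays are the same in both comparisons. ISG15 measured 1.48, 1.59, 2.01 and 1.51 on H1-2 arrays, all below the lowest H0 array of 2.30 (log2 change -1.06, SE 0.20, adjusted p = 0.0141). IFI44L was at -1.07, -1.23, -2.60 and -1.77, against -0.81 in the lowest H0 baboon (log2 change -1.69, SE 0.33, adjusted p = 0.0141). HERC6 was at -0.55, -0.71, -0.08 and -0.77, all below the lowest H0 level of 0.25 (log2 change -1.06, SE 0.21, adjusted p = 0.0141).

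The other H1-2 calls on day 1 were LY6E (-1.55, adjusted p = 0.0221), USP18 (-1.40, adjusted p = 0.0363, 2 of 4 arrays well above background), IFIT1 (-1.30, adjusted p = 0.0368) and OAS2 (-1.17, adjusted p = 0.038). HERC5, which fell in H2-3, measured 0.16, -0.04, 0.97 and 0.13 in H1-2, within the H0 range, and changed by -0.78 (adjusted p = 0.371). The members' median change was -0.41. In 8 members every H1-2 array was below every H0 array, against 5.4% of all genes. The count leaned on the fit. With scan day in the model 0 members were called, and 1 lower and 3 higher genes in all, while the members' median was -0.66 and ISG15 was at -1.20. That fit, too, sets day 1 against H0 baboons 3 to 5 only. With slide in the model 0 members were called, and 7 lower and 2 higher genes in all, with a median of -1.27; H1-2 day 1 shared no slide with H0. With the 2 groups fitted alone, 1 member was called. With the normexp background 8 were called, with a median of -0.25, and IFI44L was at -0.84 and HERC6 at -0.60. Without H1-2 baboon 1, 0 members were called, and 2 lower and 2 higher genes in all, while the median was -0.39 and HERC6 was at -1.06. The count was 3 without H1-2 baboon 2 or H0 baboon 4 or 5, and 4 without H1-2 baboon 4 or H0 baboon 1 or 2.

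Set directly against each other on day 1, H2-3 and H1-2 differed in 0 members and in 0 of all genes (limma, adjusted p = 0.355 or more for every member). At an unadjusted p under 0.05, USP18 was 1.06 and HERC6 0.72 lower in H2-3, and RTP4 was 1.23 and XAF1 0.59 higher. Among all 21130 genes, 756 were lower and 468 higher at that threshold. HERC6 was the 1 member whose groups did not overlap, against 1.07% of all genes, with -0.78 as the highest H2-3 level and -0.77 as the lowest H1-2 level. The members' median difference was -0.03. Within slides 4 and 5, which held 2 arrays of each category, 0 members were called, with medians of -0.20 and 0.17.

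On day 2 the H2-3 blood had higher levels than on day 1 of the same baboons. Of 38 members, 8 were higher and 0 lower, against 1.74% and 1.23% of all genes, and the members' median log2 change was 0.72. The 8 were USP18, DHX58, ISG15, HERC6, STAT2, HERC5, EPSTI1 and PARP12. In 11 members every day 2 array was above every day 1 array, against 2.72% of all genes. The titles number the same baboons on both days. With each baboon set against itself 14 members were higher, beside 849 higher and 549 lower among all genes, and with the baboon as a random block 18, beside 1453 and 1953. Without pairing, 368 genes were higher and 260 lower, and 242 and 82 when scaled to the probes detected on all arrays.

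**Figure D3:**
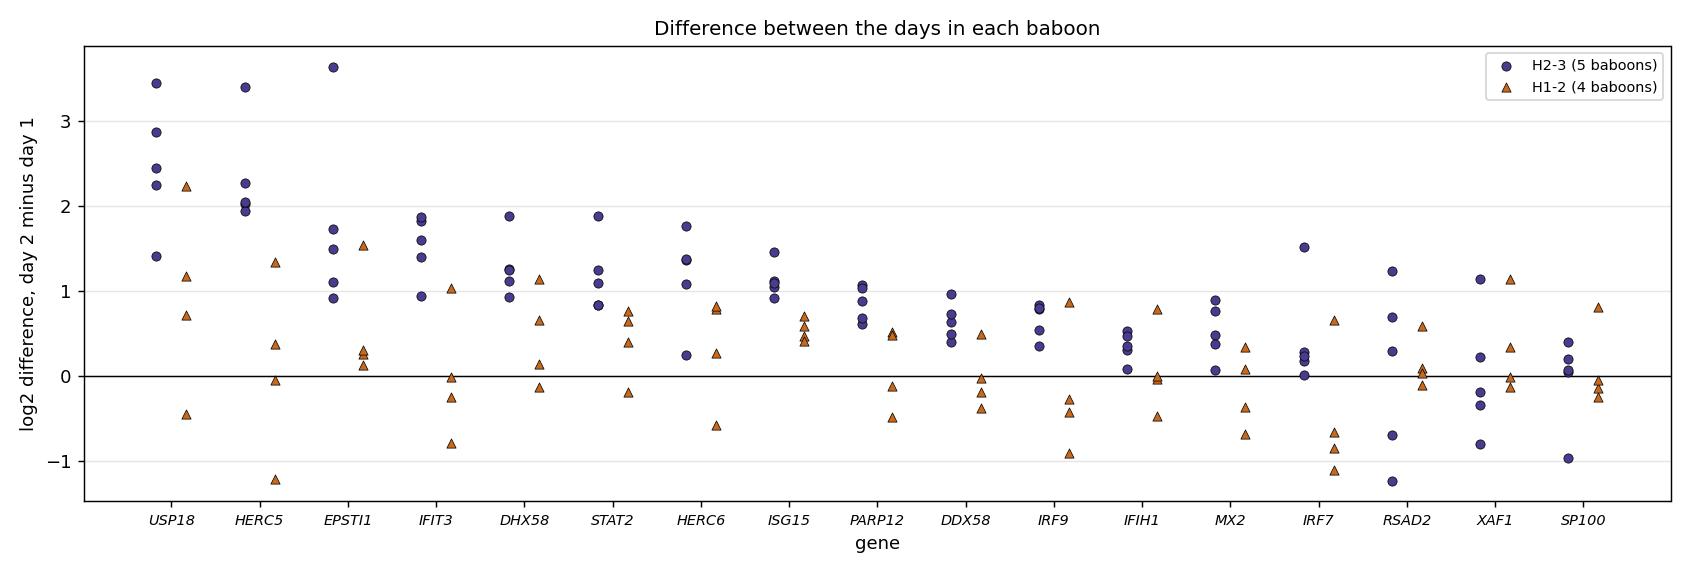
Day 2 minus day 1 level (log2, vertical axis) of each baboon for 17 members, with H2-3 baboons as circles and H1-2 baboons as triangles. For HERC5 and USP18 the 5 H2-3 circles all lie above 0.

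HERC5 had 1.86, 1.33, 0.93, 2.24 and 1.71 on the H2-3 day 2 arrays and -1.54, -0.69, -1.34, 0.31 and -0.33 on the day 1 arrays of the same baboons in the same order. Every day 2 array was above every day 1 array, a 5.04-fold higher mean (log2 change 2.33, SE 0.50, adjusted p = 0.0218). Without the day 2 array of baboon 4, or that of baboon 5, HERC5 was not called. USP18 had -1.29, -1.53, -1.58, -0.95 and -0.65 on day 2, where all 5 arrays were well above background, against -2.94 in the highest day 1 array (log2 change 2.48, SE 0.38, adjusted p = 0.00805). With the same floor for day 1 arrays on which USP18 was not well above background, the fold was 3.30. Over 22 alternative fits the USP18 log2 change ranged from 0.67 to 2.72 and stayed called, so its size depended on the processing.

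ISG15 measured 3.1, 2.54, 2.48, 2.53 and 2.34 on day 2, when the highest day 1 array was at 1.64. The means differed by 1.13 (SE 0.19, adjusted p = 0.0118). HERC6 measured 0.19, -0.53, 0.00, -0.01 and -0.09 on day 2, also without overlap with day 1 (log2 change 1.17, SE 0.20, adjusted p = 0.0126). Its change ranged from 0.54 to 1.28 over 22 alternative fits and stayed called. All 4 members of the ISG15 system therefore passed the test in this comparison as well as on day 1, and both comparisons use the same H2-3 day 1 arrays.

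DHX58 measured 5.39, 4.59, 4.52, 5.23 and 5.13 on day 2, above the 3.97 of the highest day 1 array (log2 change 1.29, SE 0.21, adjusted p = 0.0112). STAT2 measured 5.31, 4.43, 4.29, 4.99 and 5.10, above the highest day 1 level of 3.90 (log2 change 1.18, SE 0.22, adjusted p = 0.0169). Its call was lost without the day 2 array of baboon 5. On day 2 EPSTI1 was 1.78 higher (adjusted p = 0.0284) and PARP12 0.85 higher (adjusted p = 0.0416), and these calls held in 14 and 12 of 22 alternative fits. The EPSTI1 change ranged from 0.57 to 2.03 over those fits.

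Several members stood just short of a call. IFIT3, whose product stabilises IFIT1 in human cells, measured 3.51, 3.42, 3.46, 4.14 and 3.89 on day 2 and 1.69, 2.49, 1.59, 2.74 and 2.29 on day 1, with no overlap (log2 change 1.53, SE 0.42, adjusted p = 0.0503). It was among the 14 members called with each baboon set against itself, as were IFIT2, IFI44L, EIF2AK2, DDX58 and PARP14. OAS3 changed by 1.00 (adjusted p = 0.052), PARP14 by 0.83 (adjusted p = 0.0589), DDX58 by 0.64 (adjusted p = 0.059) and OAS1 by 1.52 (adjusted p = 0.104). The 3 members whose mean was lower on day 2 were CMPK2 (-0.46), PLSCR1 (-0.10) and SP100 (-0.05).

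Read baboon by baboon, 27 of 38 members were higher on day 2 in all 5 H2-3 animals, against 12.9% of all genes. In H1-2, 4 of 38 were higher in all 4 animals, against 13.6% of all genes. Lower on day 2 in every animal were 0 members in H2-3 and 1 in H1-2, against 11.4% and 20.3% of all genes. The number of members higher on day 2 was 37, 36, 32, 32 and 31 in H2-3 baboons 1 to 5, with medians of 1.34, 0.42, 0.71, 0.73 and 0.56. In H1-2 baboons 1 to 4 the numbers were 17, 35, 11 and 21, with medians of -0.04, 0.71, -0.30 and 0.03. H1-2 baboon 2 lay among the H2-3 animals and the other H1-2 animals lay near or below 0. The count of 8 in H2-3 ranged from 4 to 11 when 1 array was left out, with 4 without the day 2 array of baboon 5 and 5 without that of baboon 4.

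In H1-2, 0 members passed the test between day 2 and day 1, as did 0 of all genes, and the members' median change was 0.13. At an unadjusted p under 0.05, 4 of 38 members were higher on day 2 and 0 lower, against 2272 and 2685 of all 21130 genes. The 4 were RTP4 by 1.5, LY6E by 1.05, USP18 by 0.92 and ISG15 by 0.54. ISG15 was at 1.95, 2.30, 2.42 and 2.09 on day 2 and 1.48, 1.59, 2.01 and 1.51 on day 1, higher in 4 of 4 baboons. RTP4 was the 1 member called with array weights or with the baboon as a random block.

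The difference between the categories in this day 1 to day 2 change was tested itself and 0 members passed (limma, adjusted p = 1 for every member). At an unadjusted p under 0.05, 10 of 38 members had the larger rise in H2-3. Among all 21130 genes, the difference was above 0 for 240 and below 0 for 181 at that threshold. For the members the differences on the log2 scale were 2.22 for HERC5, 1.56 for USP18, 1.53 for IFIT3, 0.84 for IRF9 and 0.84 for HERC6. They were 0.83 for DHX58, 0.77 for STAT2, 0.75 for PARP12, 0.66 for DDX58 and 0.59 for ISG15. The members' median difference was 0.67. A return on day 2 was therefore not shown to differ between H2-3 and H1-2.

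Against H0, 2 of 38 members, LY6E and HERC6, were lower in H2-3 on day 2, and 2, IFI35 and SAMD9L, were higher, against 4.48% lower and 10.3% higher among all genes. Scaled to the probes detected on all arrays, 2030 genes were lower and 1567 higher, in place of 947 and 2176. LY6E measured 2.43, 2.33, 3.00, 2.30 and 1.72 on day 2, and 1 of these arrays reached the H0 range (log2 change -1.33, SE 0.37, adjusted p = 0.0223). HERC6 was the 1 member still without overlap, against 2.96% of all genes, with 0.19 as its highest H2-3 level and 0.25 as the lowest H0 level (log2 change -0.62, SE 0.20, adjusted p = 0.0432).

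IFI35, a partner of NMI in innate signalling, measured 4.32, 3.87, 3.48, 4.08 and 3.94 in H2-3 on day 2 and 2.94, 2.96, 3.47, 3.59 and 2.99 in H0. Only H2-3 baboon 3 lay within the H0 range (log2 change 0.75, SE 0.21, adjusted p = 0.0235). SAMD9L, a restriction factor of poxviruses, measured 5.36, 5.95, 5.43, 6.04 and 5.87 against 3.02, 4.66, 5.51, 4.62 and 5.12, where H0 baboon 1 was lowest (log2 change 1.15, SE 0.35, adjusted p = 0.0326). These 4 calls rested on single arrays: the count was 0 without H0 baboon 1 or H2-3 day 2 baboon 4, 1 without H0 baboon 4 or 5 or H2-3 day 2 baboon 5, 2 without H2-3 day 2 baboon 2 and 8 without H0 baboon 3.

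ISG15 and USP18 did not pass the test against H0 on day 2, with changes of -0.11 (SE 0.19) and 0.03 (SE 0.38). Members that had not been called on day 1 stood above H0 by point estimate on day 2: OASL by 1.16, IFIT2 by 1.08, IFIT3 by 1.07, PARP9 by 0.90 and IRF7 by 0.70, none called. The members' median was 0.46 above H0, and it was 0.29 without H0 baboon 1, 0.26 with quantile normalisation and 0.23 with array weights. In H1-2 on day 2, 0 members and 0 of all genes passed the test against H0. At an unadjusted p under 0.05, 5 members were lower there and 0 higher, against 1098 and 1130 of all 21130 genes. The changes were -1.16 for IFI44L, -0.82 for IFIT1, -0.74 for HERC6, -0.66 for EIF2AK2 and -0.52 for ISG15. The members' median was -0.18. That median ranged from -0.35 without H1-2 baboon 2 to -0.07 without H1-2 baboon 3, and it was -0.34 without H0 baboon 1, -0.11 without H0 baboon 3 and -0.08 without H0 baboon 5. In 2 members every H1-2 array of day 2 lay below every H0 array, against 0.899% of all genes.

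Between the categories on day 2, 0 members and 0 of all genes passed the test (limma, adjusted p = 0.508 or more for every member). The H2-3 means were higher in 35 of 38 members, with a median of 0.55, and in 10947 of all 21130 genes. At an unadjusted p under 0.05, 18 members were higher in H2-3 and LY6E was lower, by 0.84. Among all genes, 1300 were higher and 762 lower at that threshold. In 4 members, DDX58, IFI44L, PARP14 and IFIT3, every H2-3 array was above every H1-2 array, against 0.568% of all genes. DDX58 measured 4.39, 3.90, 3.93, 4.47 and 4.20 in H2-3 and 3.54, 3.78, 3.44 and 3.43 in H1-2. IFIT3, shown above for H2-3, was at 2.39, 3.35, 2.38 and 2.34 in H1-2, with baboon 2 well above the other 3.

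The 2 slides of day 2 did not give the same picture. Within slide 7, with 2 arrays of each category, 13 members were higher in H2-3 and LY6E was lower, and the median was 0.90. Among all 21130 genes, 3148 were higher and 2450 lower in that fit. Within slide 6, with 3 H2-3 arrays and 2 H1-2 arrays, 0 were called and the median was 0.27. Slide 6 held H1-2 baboon 2, whose member median of 0.27 relative to the H0 mean was the highest of H1-2 on day 2. It also held H2-3 baboon 3, whose -0.14 was the lowest of H2-3. Why the slides differed was not tested.

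**Figure D4:**
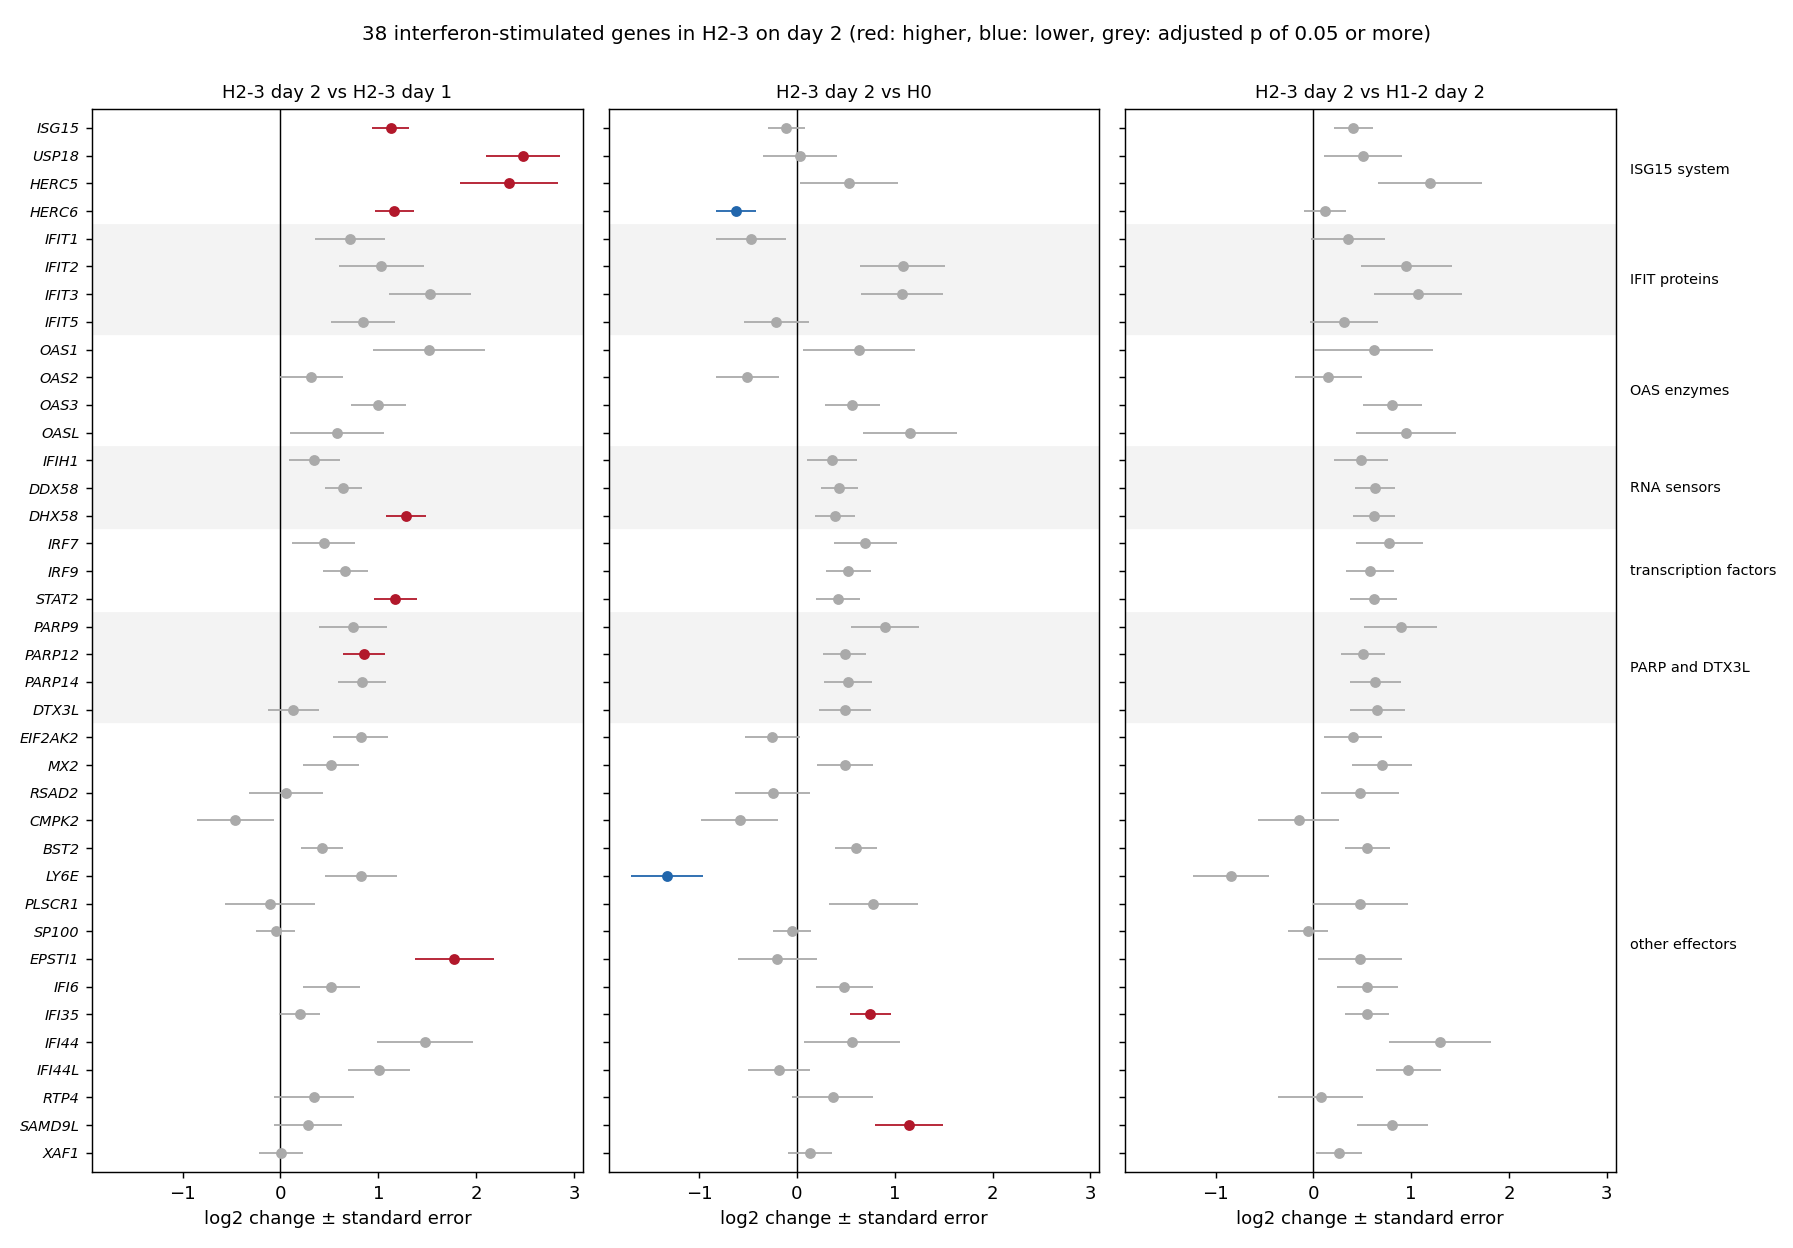
Log2 change (points) with its standard error (bars) of the 38 tested members in H2-3 on day 2, set against H2-3 day 1, against H0 and against H1-2 day 2 in 3 panels. Coloured points passed the test: 8 higher against day 1, 2 lower and 2 higher against H0, and 0 against H1-2 day 2.

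Before exposure the members already differed among the H0 baboons. H0 baboon 1 had the lowest level in 29 of 38 members, and H0 baboons 5 and 3 had the highest in 16 and 13. The SD over the 5 H0 arrays was 1.41 for HERC5, 1.27 for IFIT3 and 1.19 for IFIT2, and 0.14 for SP100. Relative to the H0 means, the median member stood at -0.54, -0.10, 0.24, 0.10 and 0.47 on H0 arrays 1 to 5. It stood at 0.71, 0.25, -0.14, 0.68 and 0.45 on the H2-3 day 2 arrays and at -0.85, -0.16, -0.66, 0.06 and -0.32 on the H2-3 day 1 arrays. The H0 range thus overlapped both. In H1-2 it stood at -0.29, 0.27, -0.33 and -0.36 on day 2 and at -0.56, -0.54, -0.26 and -0.47 on day 1.

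Most members moved together over the arrays. The correlation of a member with the median of the other members over 23 arrays had a median of 0.643. It was highest for DHX58 (0.879), STAT2 (0.876) and HERC5 (0.872). It was lowest for PLSCR1 (-0.052), SP100 (-0.007), CMPK2 (0.052) and LY6E (0.202). LY6E was thus called lower on day 1 in both categories while it followed the other members little. CMPK2 and RSAD2 are neighbours on human chromosome 2, and neither was called in any comparison. With the group means taken out, the correlations had a median of 0.618 and ran from -0.114 to 0.89. The 23 arrays share groups, slides and scan days, and these correlations only describe them. Other gene sets were not compared, so moving together is not shown to be particular to the members.

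The 3 members outside the test gave no measurable level in most samples. IFI27 was well above background on the array of H2-3 baboon 3 on day 2, at -2.34, where the other H2-3 day 2 arrays lay at -5.19 or below. SAMD9 was well above background in H1-2 baboon 1 on day 1, at -2.0. MX1, a classic interferon-response gene in human blood, had its highest level, -3.24, in H1-2 baboon 2 on day 2. Each rests on 1 human probe, and its match to the baboon transcript was not examined here.

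Upstream of the members, the interferon genes themselves were almost unmeasured: of 13 ligand genes on the array, IFNA21 and IL28A were tested, and neither was called in any comparison. Among 75 other interferon pathway genes tested, 8 were lower (against 13.5% of all genes) and 23 higher (30.7%, against 15% of all genes) in H2-3 than in H0 on day 1. Receptor and kinase genes made up 6 of the higher ones: IFNGR2 by 1.77 (adjusted p = 0.000317), JAK2 by 1.72, IL10RB by 1.28, IFNAR2 by 1.12, IFNAR1 by 0.90 and TYK2 by 0.85. The 75 also include 40 other interferon-stimulated genes. Of these 40, 6 were lower (15%) and 7 higher (17.5%), with a median log2 change of 0.07, so they moved in both directions. The antiviral helicase gene MOV10 fell by 1.63, and UBA7, the enzyme that activates ISG15 for tagging, fell by 0.87. UBA7 was the 1 gene called lower among 23 sensors, adaptors and regulators of the pathway (4.3%, against 13.5% of all genes). Of these 23, 10 were higher (43.5%, against 15% of all genes), with a median log2 change of 0.64. UBA7 thus went against most of its list.

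Between the days in H2-3, 4 pathway genes were higher on day 2 (5.3%, against 1.74% of all genes) and 0 were lower. Among them MOV10 was 1.45 higher (adjusted p = 0.0112) and UBA7 0.93 higher (adjusted p = 0.0294). UBA7 was the 1 call among the 23 sensors, adaptors and regulators, of which 14 changed below 0 and 9 above. Against H0 on day 2, 1 pathway gene was lower (1.3%, against 4.48% of all genes) and 21 higher (28%, against 10.3%). In H1-2 on day 1, 2 were lower (2.7%, against 4.42%) and 10 higher (13.3%, against 4.18%), among them IFNGR2 (1.40), IFNAR1 (1.02) and IL10RB (1.02), and 0 were called with slide or scan day in the model. These counts of pathway genes leaned on single arrays. The 12 of H1-2 became 0, 2 and 7 without the day 1 arrays of H1-2 baboons 1, 2 and 4, 6 without H0 baboon 1 or 5, and 23 without H0 baboon 3. The 22 of H2-3 on day 2 against H0 became 9 without H0 baboon 1 or the day 2 array of H2-3 baboon 4, 11 without that of baboon 5, and 14 without H0 baboon 2 or 5. The 4 between the days in H2-3 became 1 without the day 2 array of baboon 5, 8 without that of baboon 1, and 2 without that of baboon 3 or 4 or the day 1 array of baboon 1, 3, 4 or 5.

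**Figure D5:**
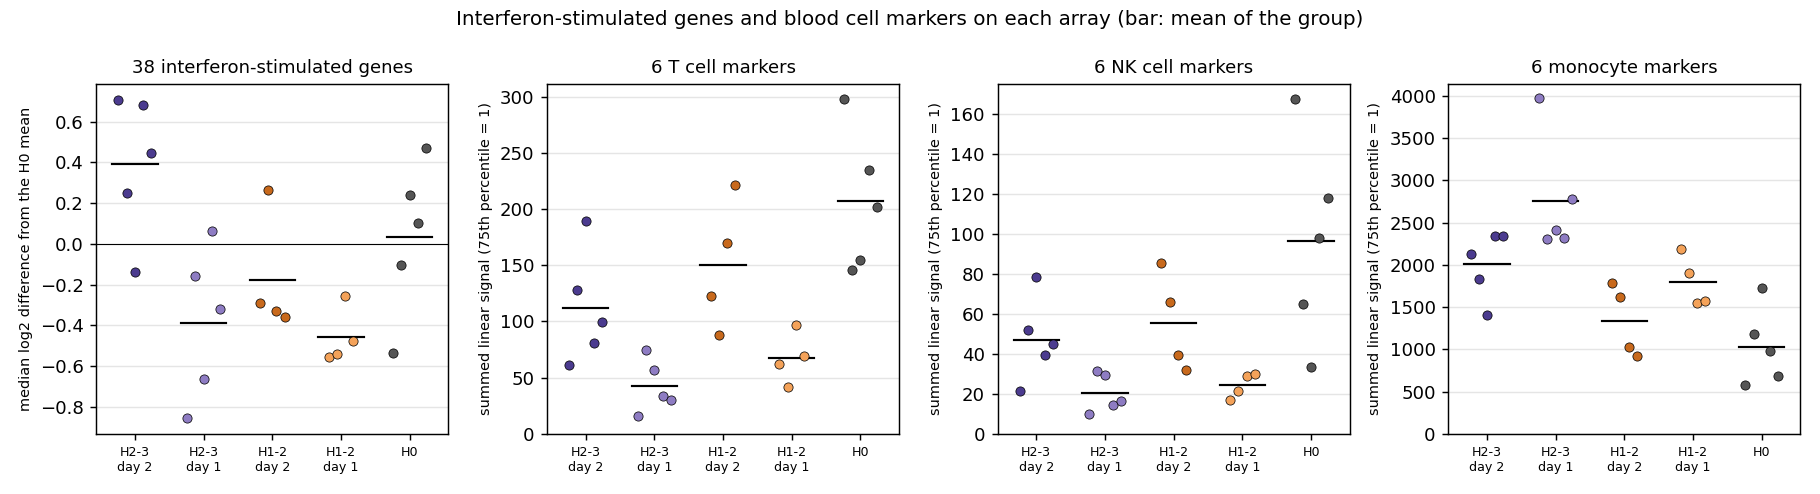
Median of the 38 members relative to the H0 mean (log2, left panel) and summed linear signal of T cell, natural killer cell and monocyte markers (75th percentile of the array set to 1, other panels) on each array, by group, with bars at the group means. T cell signal was 15.7 to 74.4 on H2-3 day 1 arrays and 146 to 298 on H0 arrays, and H0 baboon 1, with the lowest member median of H0, had the highest T cell signal.

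Cell type markers moved beside these results. The summed signal of the 6 T cell markers, relative to the array's 75th percentile, was 60.9 to 189 on H2-3 day 2 arrays and 15.7 to 74.4 on H2-3 day 1 arrays. It was 88.0 to 222 on H1-2 day 2 arrays, 42 to 97.1 on H1-2 day 1 arrays and 146 to 298 on H0 arrays. T cell markers were thus low on day 1 and higher on day 2, as many members were, and 4 of 6 passed the test between the days in H2-3. The 6 natural killer cell markers summed to 21.7 to 78.2 on H2-3 day 2 arrays, 9.70 to 31.7 on H2-3 day 1 arrays and 33.4 to 167 on H0 arrays.

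Monocyte markers summed to 2302 to 3974 on H2-3 day 1 arrays and 574 to 1726 on H0 arrays, with no overlap. B cell markers were lower in 3 of 4 tested genes on H2-3 day 1. Of 7 tested plasmacytoid dendritic cell markers, 3 were lower and 2 higher on H2-3 day 1, and the defining markers IL3RA and CLEC4C were well above background on 0 arrays. H0 baboon 1, which had the lowest level of most members, had the highest T cell (298) and natural killer cell (167) signal and the lowest monocyte signal (574). The part of the cell makeup in the members' changes was not tested.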

How the data were processed

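One-colour human Agilent arrays of baboon whole blood gave 23 files with 62976 spots each. Per the file headers, the deposited intensity values are processed signals that Feature Extraction 10.7.3.1 corrected for background. The authors also deposited processed log2 values, whose scaling is unstated in the labels; these served as an alternative, and each array's values had a median of 4.703. Spots of a probe were averaged, log2 was taken, and the array's 75th percentile over 50599 probes was subtracted. Probes well above background on at least 4 arrays (27215) were kept, and the brightest per gene was used. limma 3.58.1 (R 4.3.3, data.table, version 1.17.8) fitted 5 group means over 21130 genes, with Benjamini-Hochberg adjustment at 0.05. The fit was tested on simulated data.

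The members, the other pathway genes and the marker lists were chosen with earlier results of these data known. Every member may be named; of the other pathway genes, the 10 with the smallest F test p and the receptors and kinases are, except 1 gene that is not reported here.

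Baboon numbers pair the 2 days within a category, since the titles number the same animals. Deviations of same-numbered arrays correlated by 0.057 to 0.39 in H1-2 and 0.054 to 0.437 in H2-3. Between H2-3 day 2 and H0, same-numbered arrays correlated by -0.076 to 0.508. These values therefore do not single out the pairs, and the pairing rests on the titles. Nothing in the labels says whether numbers link categories or H0. Alternatives covered background, scaling, filter, probe choice, weights, slide, scan day, pairing and single arrays. Promoter and protein sequences were not used here. The number of arrays limits the precision.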

Additional observations from a re-analysis of the deposited data

Results flagged for a closer look

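Within groups of 4 or 5 arrays, 9 of 190 pairs of member and group held an array standing far from the others; chance gives about 1 in 20. Of these 9, 8 were high and 1 was low. In H2-3 on day 2, baboon 1 was high for ISG15 (3.1, the others 2.34 to 2.54) and for XAF1 (0.19, the others -0.84 to -0.55). In H2-3 on day 1, baboon 4 was high for IFI44L (-0.33, the others -1.61 to -1.25) and baboon 3 was low for DTX3L (0.67, the others 0.92 to 1.02). In H1-2 on day 2, baboon 2 was high for IFIT3 (3.35, the others 2.34 to 2.39) and baboon 3 for CMPK2 (-0.33, the others -1.50 to -1.37). In H1-2 on day 1, baboon 1 was high for SAMD9L (5.95, the others 5.10 to 5.20) and for DTX3L (1.23, the others 0.57 to 0.64), and baboon 2 for IFIT5 (-1.34, the others -2.68 to -2.52).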

How the results depend on the processing

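No called change of a member or of a named pathway gene turned its sign under the alternatives run. The 12 members lower in H2-3 on day 1 numbered 11 to 13 with 1 array left out and 12 with baboon number as a replicate block. In place of 0, 1 member was higher there with the normexp background, a filter at 12 arrays or the baboon as a random block. With array weights or the mean of a gene's probes 2 were higher, and 0 to 2 with 1 array left out. The 31 other pathway genes called there numbered 7 with slide as a block, 15 within slide 3 and 23 to 34 with 1 array left out. The 7 members lower in H1-2 on day 1 numbered 4 without a filter, 1 with the 2 groups alone, 0 with slide or scan day as a block, 6 with the baboon number block and 0 to 8 with 1 array left out. The 12 pathway genes there numbered 2 with the 2 groups alone, 0 with either batch as a block and 0 to 23 with 1 array left out. Of H2-3 on day 2 against H0, the 4 members numbered 2 with quantile normalisation, the deposited table, no filter or slide as a random block (an alternative chosen after seeing the data), 1 with the 2 groups alone, 3 with the baboon number block and 0 to 8 with 1 array left out. The 22 pathway genes numbered 14 without a filter, with array weights or with slide as a random block, 11 with the 2 groups alone and 9 to 30 with 1 array left out. Of H2-3 day 2 against day 1, the 8 members numbered 16 with array weights, 18 with the baboon as a random block, 14 with each baboon against itself and 4 to 11 with 1 array left out. The 4 pathway genes numbered 7 with the mean of a gene's probes, 13 with array weights or the random block, 2 with the 2 groups alone, 9 with each baboon against itself and 1 to 8 with 1 array left out. In H1-2 day 2 against day 1, with 0 called, array weights and the random block gave 1 member and 3 pathway genes. Between categories, with 0 called, slide 5 on day 1 gave 2 pathway genes, and slide 7 on day 2 gave 14 members and 32 pathway genes. The causes were not tested. The other comparisons kept a count of 0 with any 1 array left out. With the normexp background the day 1 changes in H2-3 of USP18, EPSTI1 and IFIT5, whose probes were dim there, and those of HERC6 and IFI44L were over 1.5 times smaller, so signal over background limits what can be said of their size. A promoter search was not run.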
